A study of Danio rerio with 6 samples.

Results

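Cadherins and the protocadherins that lie outside the large protocadherin gene clusters were followed across the *drl:EGFP* sort of zebrafish embryos. The members were taken by their symbol alone, as the lower-case names that begin with *dsc*, *dsg* or *celsr*, with *cdh*, *cdhr* or *fat* and a number, or with *pcdh*, a number and no further letter than a or b. This leaves out the clustered protocadherins, and also *pcdh11x* and the genes listed in capitals as *CDH16*, *CDH7*, *CDHR1* and *FAT4*, of which only *FAT4* was called. The rule gave 46 of 25965 genes with a symbol on the array, measured by 74 of 75212 transcript clusters, where a transcript cluster is a probe set of the array and a gene can have several. The letters *dsc* also brought in *dscama*, *dscamb*, *dscaml1*, *dscc1* and *dscr3*, which are not cadherins. None of these 5 passed the test, with log2 differences from -0.17 to 0.13, and the 41 cadherin genes that remain are described below.

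Cadherins are transmembrane proteins that hold cells together through calcium-dependent contacts between their outer domains. Classical cadherins join like cells and are tied to actin by catenins on the inner side of the membrane. Desmosomal cadherins link to intermediate filaments, protocadherins have other cytoplasmic tails and often act in cell recognition and movement, and the very large Celsr and Fat proteins take part in planar polarity, by which cells of a sheet align. In the zebrafish embryo E-cadherin (*cdh1*) is required for epiboly and N-cadherin (*cdh2*) for the shaping of the neural tube and for heart formation.

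RNA came from embryos of the 2 somite stage, all from mass matings of 1 family homozygous for *drl:EGFP*, in which the regulatory region of *draculin* (*drl*) drives EGFP. Cells that excluded propidium iodide were sorted into an EGFP-positive fraction and an EGFP-negative fraction, with 3 arrays for each from 3 separate collections, and each array holds cells pooled from many embryos. Every cell carries the transgene, so the fractions differ in reporter level, and the EGFP-negative fraction holds the rest of the embryo. The reporter marks the lateral plate mesoderm, the strip of tissue that gives rise to heart, vessels, blood, kidney and fin. In these arrays all 10 measured markers of this tissue were higher in EGFP-positive cells, among them *drl* itself by a log2 difference of 3.64. The 4 endoderm markers were higher as well, 10 of 12 neural plate markers and 7 of 11 markers of epidermis and enveloping layer were lower, and 5 of 6 hatching gland markers were higher. In such bulk samples fewer cells with a transcript and less transcript per cell cannot be told apart.

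Signals are log2 values that the authors normalized, array medians ran from 5.02 to 5.10, and of a gene's clusters the brightest on average stands for the gene. Low expression was not told apart from probe background near the array medians. The fractions were compared by limma over all clusters, and a gene was called at a Benjamini-Hochberg adjusted p under 0.09, the false discovery rate named in the study's methods. With 3 arrays a side an exact permutation test (two-sided) of 1 gene has p = 0.1 as its smallest value, which it gave for every member whose fractions do not overlap.

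Of the 41 cadherin genes, 7 were higher in EGFP-positive cells (17.1%, against 4.12% of all genes with a symbol), 8 were lower (19.5%, against 3.49%) and 26 did not pass. The genes that rose were *pcdh12*, *pcdh10a*, *cdh11*, *cdh6*, *pcdh10b*, *pcdh1a* and *cdh18*. Those that fell were *pcdh18a*, *fat2*, *celsr1b*, *pcdh19*, *pcdh18b*, *pcdh17*, *celsr2* and *celsr1a*. The 10 members with a mean below that of the median cluster held no call by limma (1, *cdh5*, had an unadjusted p under 0.05), and among the 31 at or above it 22.6% were higher and 25.8% lower, against 5.9% and 4.8% of all genes at that level. This mean runs over both fractions, so a gene can reach the level through the fraction where it is high. *pcdh12* did so, with an EGFP-negative mean of 5.06 against 5.07 for the median cluster. The split by level is thus not independent of the difference. A difference of at least 2-fold was found for 9 of the called members (22% of 41, against 2.87% of all genes), 5 higher and 4 lower. The median log2 difference of the family was 0.02, that of all genes was 0.00, and the median size of a difference without its sign was 0.20 for the family and 0.12 for all genes.

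**Figure D1:**
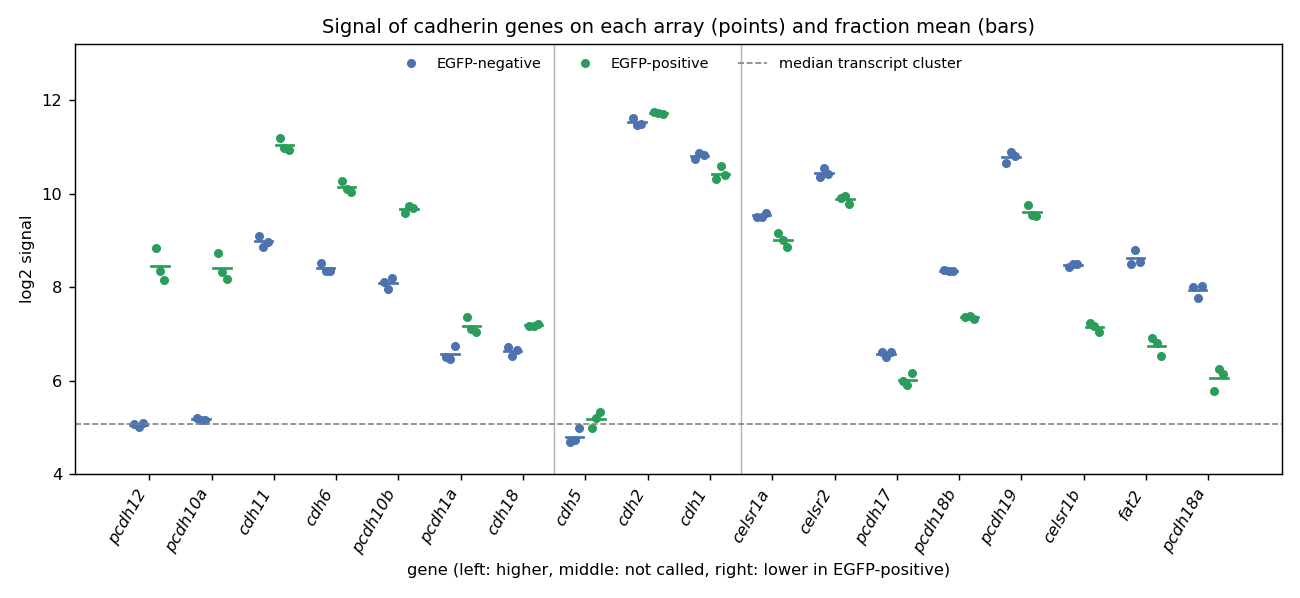
Log2 signal of the 15 called cadherin genes and of *cdh5*, *cdh2* and *cdh1* on each of the 3 EGFP-negative (blue) and 3 EGFP-positive (green) arrays, with short bars for the fraction means and a dashed line at the median transcript cluster. *pcdh12* and *pcdh10a* lie at that line in EGFP-negative cells and above 8 in EGFP-positive cells, while *cdh2* and *cdh1* lie above 10 in both. Heights are not to be set against each other between genes, since probes differ.

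Among the genes that rose was *pcdh12*, a protocadherin known in mammals as a protein of endothelial cells. It stood at 5.07, 5.00 and 5.097 on the EGFP-negative arrays and at 8.83, 8.33 and 8.16 on the EGFP-positive arrays. EGFP-negative cells were thus at the array medians on every array, and EGFP-positive cells were far above them, most so in replicate 1. The log2 difference of 3.38 (SE 0.17, limma adjusted p = 0.000241) is a ratio of 10.4, which is approximate because the lower side is near background. A cluster of 20 probes at the same place on the opposite strand was higher too, by 0.78 (limma adjusted p = 0.01). In Zv9, the assembly for which the array was designed, *pcdh12* occupies chr14:13997339-14016531 on the reverse strand. With the mean of the 2 clusters its log2 difference was 2.08.

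Among the 12 classical cadherins the calls were of type II, a difference between the types that was not tested. Type II genes carry a longer adhesive interface and mark migrating or mesenchymal cells in many embryos. They gave 3 calls of 8, all higher (37.5%, against 4.12% of all genes). Type I genes gave none of 4 by limma, 2 of them (*cdh1* and *cdh2*) with an unadjusted p under 0.05. For *cdh11*, a cadherin of mesenchyme, the signals were 9.10, 8.87 and 8.96 in EGFP-negative and 11.18, 10.97 and 10.94 in EGFP-positive cells. The gene is therefore well above background in both fractions and 4.16-fold higher in EGFP-positive cells (log2 difference 2.06, 95% interval 1.81 to 2.30, limma adjusted p = 0.000246). Its second cluster, of 17 probes on the opposite strand, was called higher too but had fraction means of 2.96 and 4.78, below the array medians.

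The gene *cdh6* encodes K-cadherin, which in mouse and zebrafish is known from the developing kidney. It read 8.52, 8.34 and 8.33 in EGFP-negative and 10.27, 10.11 and 10.03 in EGFP-positive cells, a ratio of 3.34 (limma adjusted p = 0.000364). The other type II gene called, *cdh18*, rose less, from 6.72, 6.53 and 6.65 to 7.18, 7.16 and 7.22 by its cluster with the highest mean, a ratio of 1.47 (limma adjusted p = 0.0179). Of its 4 clusters 2 have identical values, and all were called higher, with log2 differences from 0.55 to 1.03, so the size of its change depends on the cluster. On chromosome 2 of Zv9 these genes are neighbours of others that did not pass, since *cdh6* is followed after 335 kb, with no cluster between them, by *cdh10* at a log2 difference of -0.03 and after another 315 kb by *cdh18*. The signal of *cdh10*, from 4.21 to 4.45 on all 6 arrays, is below the array medians.

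VE-cadherin, encoded by *cdh5*, is the defining cadherin of endothelium. It stood at 4.68, 4.73 and 4.98 in EGFP-negative and 4.99, 5.20 and 5.32 in EGFP-positive cells. The EGFP-positive arrays are all higher but near the array medians, and the log2 difference of 0.38 (95% interval 0.08 to 0.67) did not pass (limma adjusted p = 0.217). It lies 619 kb from *cdh11* on chromosome 7. The remaining type II genes, *cdh7*, *cdh8* and *cdh12*, had differences from 0.02 to 0.10. For *cdh7*, whose arrays ranged from 7.75 to 8.15, the 95% interval of the difference ran from -0.30 to 0.35.

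Type I cadherins differed little. N-cadherin (*cdh2*) read 11.62, 11.46 and 11.49 in EGFP-negative and 11.74, 11.73 and 11.70 in EGFP-positive cells. The EGFP-positive arrays were all higher, but the log2 difference was 0.20 (95% interval 0.0022 to 0.40) and did not pass (limma adjusted p = 0.338). E-cadherin (*cdh1*) went the other way, from 10.73, 10.86 and 10.82 to 10.31, 10.59 and 10.39, again without overlap. Its log2 difference of -0.37 (95% interval -0.62 to -0.13) missed the threshold (limma adjusted p = 0.131). The other *cdh1* cluster, on unplaced sequence and of 34 probes, differed by -0.38 and was called lower, and the main cluster was called with an intensity trend (adjusted p = 0.0807) or a filter on low values (adjusted p = 0.0897). Set against each other within arrays, *cdh2* minus *cdh1* was 0.72 ± 0.15 (SD, n = 3) in EGFP-negative and 1.29 ± 0.15 (SD, n = 3) in EGFP-positive cells. The balance of the pair was thus 1.49-fold further toward *cdh2* in EGFP-positive cells, with no overlap of the fractions (exact permutation test, p = 0.1). R-cadherin (*cdh4*) and M-cadherin (*cdh15*) had signals from 4.76 to 5.12 on all arrays, near or below the medians, and did not pass.

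**Figure D2:**
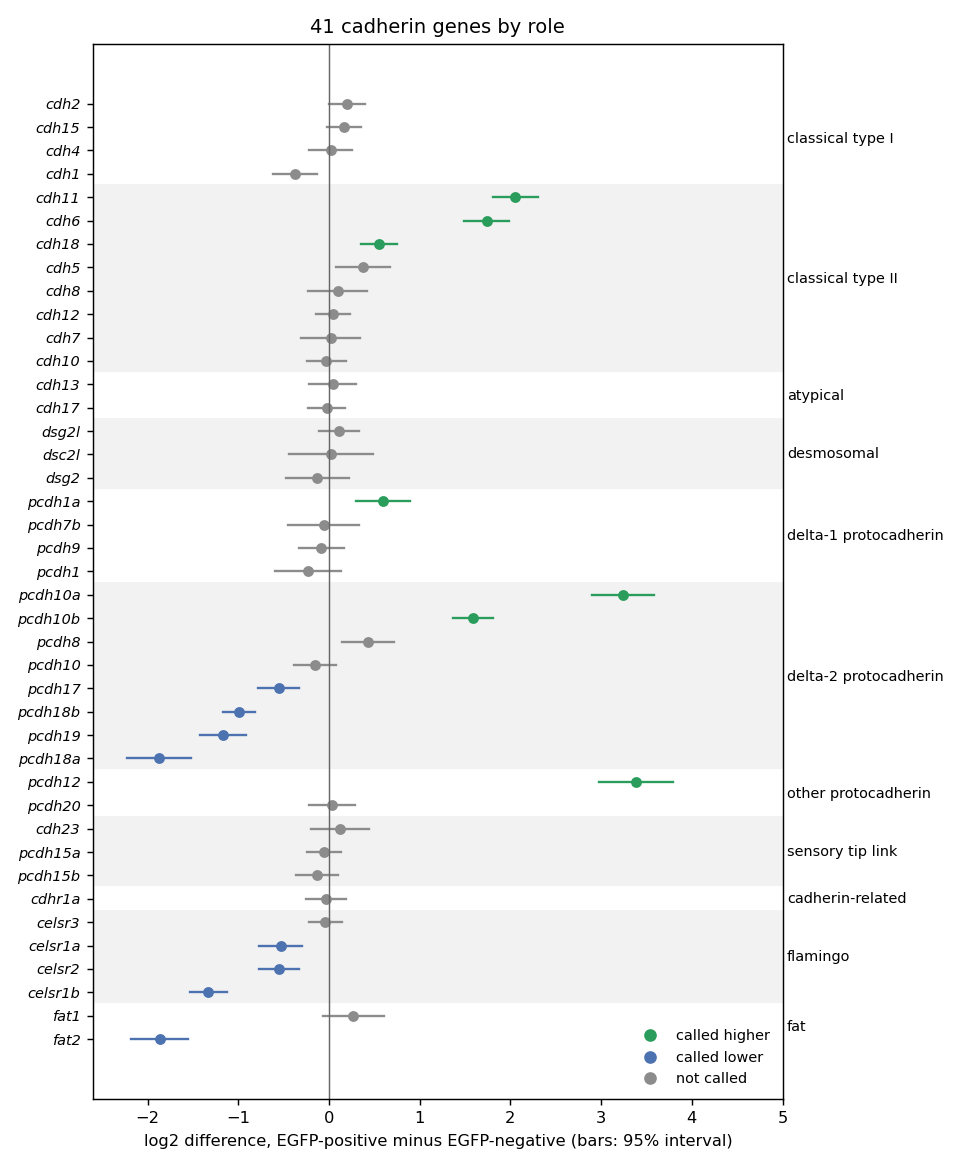
Log2 difference between the EGFP-positive and EGFP-negative fractions (points, 3 arrays each) with its 95% interval from limma (bars) for the 41 cadherin genes, grouped by role, green where called higher, blue where called lower and grey otherwise. Of 8 delta-2 protocadherins 2 were higher and 4 lower, 3 of 4 *celsr* genes were lower, and the classical type I, atypical, desmosomal and sensory groups held no call.

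Delta protocadherins changed in both directions. These proteins share conserved motifs in their tails, and the delta-2 branch (*pcdh8*, *pcdh10*, *pcdh17*, *pcdh18* and *pcdh19*) is known for roles in cell movement and in the sorting of tissues. Of the 8 delta-2 genes 2 were higher (25%, against 4.12% of all genes), 4 were lower (50%, against 3.49%) and 2 did not pass. The median size of a difference without its sign was 1.08, against 0.12 for all genes.

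The most changed of them, *pcdh10a*, was at 5.20, 5.16 and 5.15 in EGFP-negative and 8.73, 8.32 and 8.18 in EGFP-positive cells. As with *pcdh12* the lower side sits at the array medians, and the ratio of 9.45 (log2 difference 3.24, SE 0.15, limma adjusted p = 2e-04) is approximate. A cluster of 28 probes on the opposite strand of the same stretch differed by 0.42 and was not called, and the mean of both clusters differed by 1.83. Its paralog *pcdh10b* was present in both fractions, with 8.11, 7.97 and 8.18 in EGFP-negative and 9.59, 9.74 and 9.69 in EGFP-positive cells. That is a ratio of 3.00 (limma adjusted p = 0.000364). These values are of a cluster on unplaced sequence, with a log2 difference of 1.58, and the gene's cluster on chromosome 14 differed by 1.63. Another gene, listed as *pcdh10* and on chromosome 10, had a difference of -0.16 with signals from 5.65 to 5.95.

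The *pcdh18* genes fell. The signals of *pcdh18a* were 8.01, 7.76 and 8.02 in EGFP-negative and 5.77, 6.26 and 6.14 in EGFP-positive cells, 3.67-fold lower (log2 difference -1.87, limma adjusted p = 0.00105). Those of *pcdh18b* were 8.36, 8.34 and 8.33 against 7.35, 7.39 and 7.32, 1.99-fold lower (limma adjusted p = 0.000958) and with an SD of 0.01 among EGFP-negative arrays. On chromosome 1 of Zv9 *pcdh10a* (chr1:12097236-12128586) and *pcdh18a* (chr1:12145907-12155872) are next to each other on the reverse strand, 17.3 kb apart and with no other cluster between them. The paralogs *pcdh18b* and *pcdh10b* (by its placed cluster) lie 800211 bases apart on chromosome 14, on opposite strands, with 10 clusters between them of which none has a symbol or was called. In each pair the *pcdh10* gene was higher and the *pcdh18* gene lower in the same 3 arrays. These pairs were singled out after their values were seen.

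**Figure D3:**
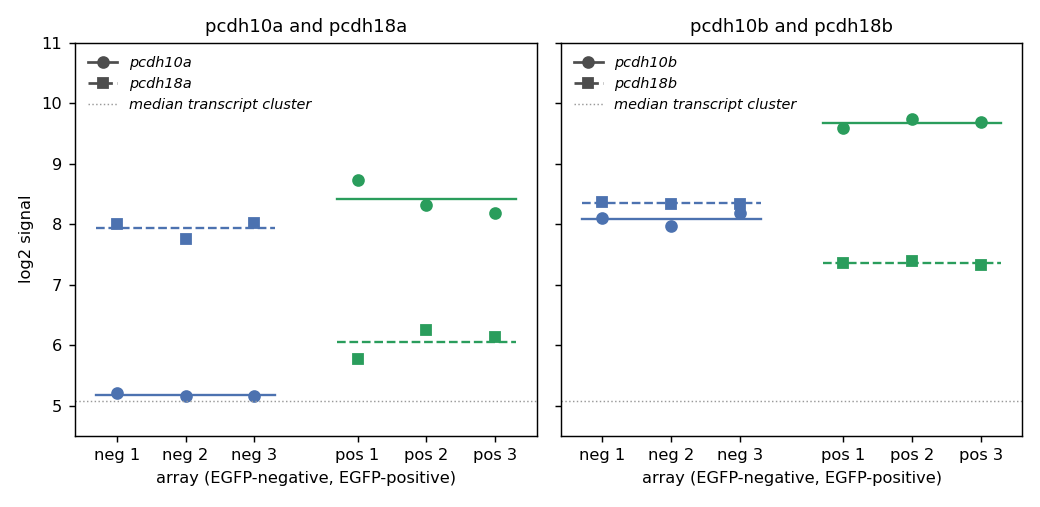
Log2 signal of *pcdh10a* and *pcdh18a* (left) and of *pcdh10b*, by its cluster on unplaced sequence, and *pcdh18b* (right) on the 3 EGFP-negative (blue) and 3 EGFP-positive (green) arrays, with lines at the fraction means and a dotted line at the median transcript cluster. In both panels the *pcdh10* gene (circles) is higher and the *pcdh18* gene (squares) lower on every EGFP-positive array than on any EGFP-negative array.

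Of the other delta-2 genes, *pcdh19*, which in zebrafish acts with N-cadherin in the neural plate, read 10.65, 10.88 and 10.79 in EGFP-negative and 9.76, 9.55 and 9.51 in EGFP-positive cells. It was 2.25-fold lower (limma adjusted p = 0.00191) but far above background in both. The level of *pcdh17* fell from 6.60, 6.50 and 6.62 to 5.99, 5.91 and 6.16 by its cluster on chromosome 11 and by more, 1.21 on the log2 scale, by a cluster on unplaced sequence. By limma the first cluster's call was lost without EGFP-negative replicate 3 or EGFP-positive replicate 1 or 2 (adjusted p = 0.101 to 0.105). Paraxial protocadherin, encoded by *pcdh8* and known from the presomitic mesoderm, stood at 9.96, 9.79 and 9.70 against 10.05, 10.36 and 10.35. All of its EGFP-positive arrays were higher, and the difference of 0.43 did not pass (limma adjusted p = 0.14), while a cluster on the opposite strand was called higher at 0.60.

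Of the 4 delta-1 genes 1 was called (25%, against 7.61% of all genes). The gene *pcdh1a* rose from 6.50, 6.46 and 6.75 to 7.37, 7.10 and 7.04, a ratio of 1.52 (limma adjusted p = 0.0566). This is the weakest of the 15 calls by its p. It was lost with a replicate block (adjusted p = 0.133) and when EGFP-negative replicate 1 or 2 or EGFP-positive replicate 1 or 2 was left out (adjusted p = 0.136 to 0.171 from limma). The paralog listed as *pcdh1* differed by -0.23 (95% interval -0.60 to 0.13), with signals from 9.39 to 10.04, and *pcdh7b* and *pcdh9* by -0.06 and -0.09.

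Of the 6 *celsr* and *fat* genes 4 were lower (66.7%, against 3.49% of all genes) and none was higher. Celsr proteins, named flamingo in the fly, bridge neighbouring cells and hold the Frizzled and Vangl complexes of the planar polarity pathway. Of the 4 *celsr* genes 3 fell (75%, against 3.49% of all genes). The largest change was that of *celsr1b*, from 8.43, 8.49 and 8.50 in EGFP-negative to 7.23, 7.16 and 7.04 in EGFP-positive cells, 2.51-fold lower (limma adjusted p = 0.000551). Its paralog *celsr1a* read 9.50, 9.51 and 9.59 against 9.15, 8.999 and 8.85, 1.45-fold lower (limma adjusted p = 0.0385). The paralogs differed in the size of the drop by 0.80 on the log2 scale within arrays, without overlap. The call of *celsr1a* was lost with a replicate block (adjusted p = 0.114) and without any array other than EGFP-positive replicate 1, at an adjusted p of 0.0901 to 0.138. For *celsr2* the values were 10.35, 10.55 and 10.41 against 9.91, 9.95 and 9.78, 1.47-fold lower (limma adjusted p = 0.0257). A *celsr2* cluster of 21 probes on the opposite strand differed by -0.21 and was not called. With the mean of both clusters the difference was -0.38 (limma adjusted p = 0.0712). The neuronal family member *celsr3* stood at 5.36 to 5.48 on all arrays and had a difference of -0.04.

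The Fat genes encode giant cadherins of epithelia. Levels of *fat2* fell from 8.50, 8.80 and 8.53 to 6.91, 6.79 and 6.53, 3.65-fold lower (limma adjusted p = 0.000737). Its other clusters, a short unplaced one and a pair on the opposite strand, had fraction means of 5.59 or less and were not called, and with the mean of all 4 clusters the log2 difference was -0.60. In contrast *fat1* read 10.23, 10.31 and 10.01 against 10.68, 10.45 and 10.23, an overlap, with a difference of 0.27 (95% interval -0.07 to 0.60). Its 4 clusters differed by -0.16 to 0.51, and none was called. The only negative difference, -0.16, was of a cluster listed on chromosome 14, while the brightest cluster lies on chromosome 1. A cluster of 32 probes on unplaced sequence, nearly as bright, differed by 0.41 (95% interval 0.14 to 0.68) without overlap (limma adjusted p = 0.139). Within arrays the balance of the pair was 4.39-fold further toward *fat1* in EGFP-positive cells, with no overlap of the fractions. Most of this was the drop of the brightest *fat2* cluster, by -1.87 on the log2 scale, and *fat1* itself was not called. A gene listed in capitals as *FAT4*, outside the lower-case rule and named after its value was seen, was 2.04-fold higher, at 6.30, 6.53 and 6.17 against 7.63, 7.39 and 7.07 (limma adjusted p = 0.0197). The other names that the rule leaves out, *CDH16*, *CDH7*, *CDHR1* and *pcdh11x*, had log2 differences of -0.24, -0.08, -0.09 and 0.06 and were not called.

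The groups that remain held no call by limma, and by the brightest cluster 0 of their genes had an unadjusted p under 0.05. Desmosomal cadherins (*dsc2l*, *dsg2* and *dsg2l*) had differences from -0.13 to 0.11 by that cluster. Of these *dsc2l*, with signals from 6.36 to 7.15, varied most in EGFP-negative cells (SD 0.40). The other *dsg2* cluster, of 23 probes on chromosome 20, differed by -0.30 without overlap. It was not called (limma unadjusted p = 0.0175, adjusted p = 0.204), and its fraction means of 5.04 and 4.74 were near or below the array medians. The tip link genes of sensory hair cells (*cdh23*, *pcdh15a* and *pcdh15b*) differed by -0.13 to 0.12 with fraction means from 5.07 to 6.12. The photoreceptor gene *cdhr1a*, the atypical *cdh13* and *cdh17* and the protocadherin *pcdh20* were near or below the array medians on every array. No difference was detectable there, which says little, since low signal alone would give this result. Clustered protocadherins gave 2 calls in 45 genes (4.44%, against 7.61% of all genes), both lower, namely *pcdh1g32* at a log2 difference of -2.12 and *pcdh1gc5* at -0.99. The median level of these 45 genes was 3.66, below the array medians, and that of all genes was 5.99. Their smaller share of calls therefore says little.

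Markers of whole tissues differed between the fractions as well. The mean log2 signal of the 10 lateral plate markers lay between 5.95 and 6.48 on EGFP-negative arrays and between 9.37 and 10.16 on EGFP-positive arrays, with the highest value in EGFP-positive replicate 1. That array also had the highest EGFP-positive value for 5 of the 7 members that rose, *pcdh12*, *pcdh10a*, *cdh11* and *cdh6* among them. It had the highest EGFP-positive value for 4 of the 8 members that fell too. EGFP-positive replicate 3 had the lowest for 5 of the 7 and for 6 of the 8, and the cause of this order was not tested. Without EGFP-positive replicate 1 all 7 members that rose kept their direction, and 6 kept their call. The 12 neural plate markers averaged 9.001 to 9.26 in EGFP-negative and 7.14 to 7.61 in EGFP-positive cells. The 11 markers of epidermis and enveloping layer averaged 8.14 to 8.70 and 6.83 to 7.20. Among EGFP-positive arrays both sets were highest in replicate 3 (7.61 and 7.20), where 6 of the 8 members that fell were lowest. The neural plate set was lowest in replicate 1 (7.14), where 4 of the 8 were highest. Endoderm and hatching gland markers rose, from 6.69 to 7.30 up to 9.47 to 9.64 and from 6.74 to 6.85 up to 8.16 to 8.49. Of the other sets 4 of 6 notochord and 3 of 6 neural crest markers were lower, and 1 of 8 paraxial mesoderm markers was higher and 1 lower. All of these marker sets keep signal above the array medians in both fractions on average. The part of each tissue in the cadherin values was not tested.

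Genes that work with cadherins were taken from lists by function. Their counts are to be read against the 7.61% of all genes that were called, 4.12% higher and 3.49% lower. Among genes at or above the median cluster that share was 10.7%. Of 11 catenins and adherens junction linkers 1 was called (9.09%, near both shares), *ctnnd2b*, which encodes the delta-catenin of neurons. It was 5.98-fold lower, from 10.73, 10.38 and 10.35 to 7.59, 8.14 and 7.98 (limma adjusted p = 0.000563). The core of the junction did not pass, with log2 differences of 0.02 for β-catenin (*ctnnb1*, 95% interval -0.18 to 0.22), 0.09 for α-catenin (*ctnna1*), 0.17 for p120-catenin (*ctnnd1*) and 0.22 for plakoglobin (*jupa*). Of 9 desmosome plaque genes 3 fell (33.3%, against 3.49% of all genes), with a list median of -0.72. These were the desmoplakin genes *dspa*, 2.07-fold lower, and *dspb*, listed as wu:fi04e12, named through a later assembly and 1.65-fold lower, and the plakophilin gene *pkp2*, 1.83-fold lower. With a replicate block 5 of the 9 were lower.

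**Figure D4:**
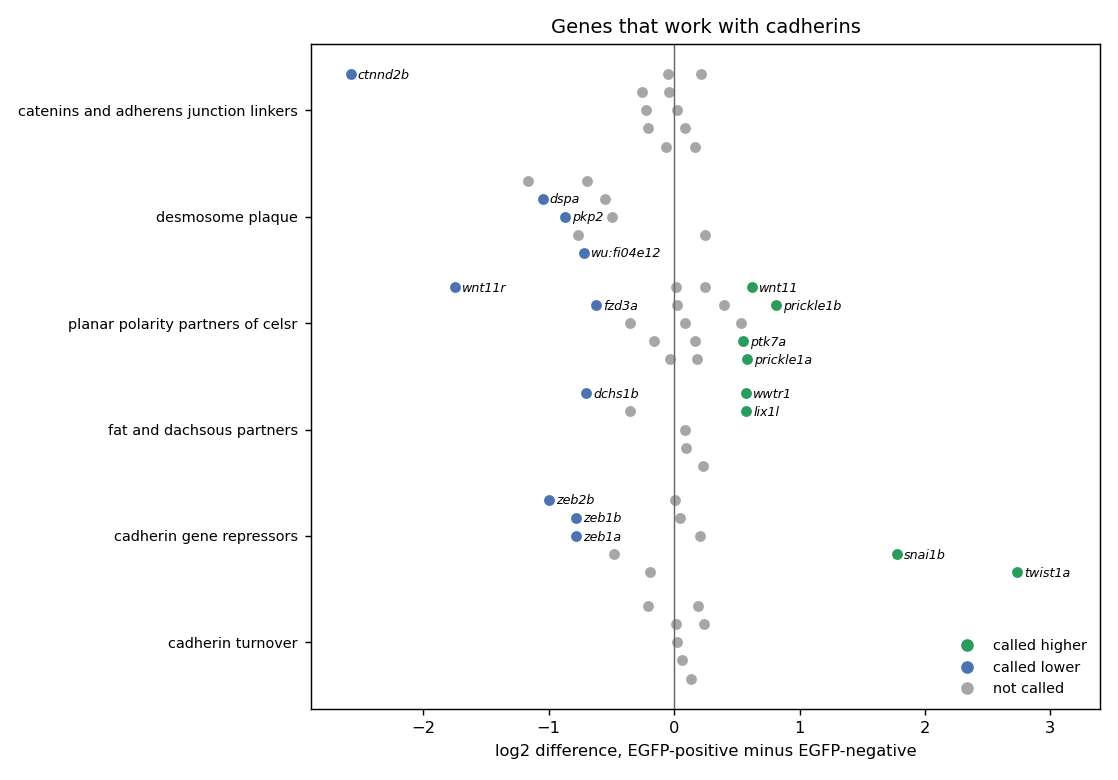
Log2 difference between EGFP-positive and EGFP-negative cells for each measured gene (points) of 6 lists of genes that work with cadherins, green where called higher, blue where called lower and grey otherwise. Desmosome plaque genes lie mostly left of 0 with a median of -0.72, catenins lie near 0 except *ctnnd2b*, and the repressors of cadherin genes spread from *zeb2b* to *twist1a* at 2.73.

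Partners of Celsr proteins in planar polarity did not fall with them as a list. Of 17 genes 35.3% were called, against 7.61% of all genes. The 4 that were higher were *prickle1b* (1.75-fold), *wnt11* (1.54-fold), *prickle1a* (1.498-fold) and *ptk7a* (1.46-fold). The 2 that were lower were *wnt11r* (3.36-fold) and the receptor gene *fzd3a* (1.54-fold). The core gene *vangl2* was at 13.26 to 13.36 on all 6 arrays, with a difference of 0.02 (95% interval -0.16 to 0.21), close to the highest signal of any cluster on an array, 13.76 to 13.83. Among 7 genes of the Fat and Dachsous pathway 2 were higher and 1 lower (42.9% called, against 7.61% of all genes). The Hippo effector *wwtr1* (Taz) was 1.48-fold and *lix1l* 1.49-fold higher. The ligand gene *dchs1b* was 1.63-fold lower by a narrow margin (limma adjusted p = 0.0874), a call lost with a replicate block or with the mean of its clusters, and *yap1* differed by 0.23 and did not pass.

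Transcription factors known to repress cadherin genes split, with 2 of 10 higher and 3 lower (50% called, against 7.61% of all genes). Of 10 such genes *twist1a* was 6.66-fold higher, at 8.95, 8.56 and 9.05 in EGFP-negative and 11.38, 11.68 and 11.69 in EGFP-positive cells. The gene *snai1b*, which encodes a direct repressor of E-cadherin transcription in mammals, was 3.42-fold higher, at 9.59, 9.17 and 9.41 against 11.15, 11.14 and 11.20. Levels of *zeb1a*, *zeb1b* and *zeb2b* were 1.72-fold, 1.72-fold and 2.00-fold lower, while *snai1a* differed by 0.05. Of 7 genes of cadherin turnover, among them *cbll1* (Hakai, a ubiquitin ligase for E-cadherin), *adam10a* and *rab5ab*, none was called by limma (1 had an unadjusted p under 0.05, *rab5aa*), and their differences ran from -0.21 to 0.24.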

How the data were processed

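RNA of sorted cells was hybridised to 6 one-colour Affymetrix ZebGene arrays designed on Zv9. The authors corrected the background (MAS), normalized by RMA in ExpressionConsole and deposited a log2 signal per transcript cluster and array. Their deposited table of the same comparison (log2 differences, statistics and p-values) was used for symbols, positions and the number of probes only. Its probe numbers are another kind of value deposited by the authors. The precision is limited by the number of arrays. The labels do not say whether equal replicate numbers share a collection, so the fit has no block.

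The fractions were compared with limma 3.58.1 in R 4.3.3 (lmFit and eBayes, two-sided, Benjamini-Hochberg over 75212 clusters, called at an adjusted p under 0.09). The siggenes procedure of the study's methods was not used here. Tables and plots were made with Python 3.11.15, pandas 2.3.3, numpy 2.4.6, scipy 1.17.1 and matplotlib 3.10.9. The procedure was tested on simulated data. Members, role groups, partner lists and markers were chosen with earlier results of these data known. Older symbols in the lists were matched through a RefSeq table of a later assembly, for names only. Named are every called member, *pcdh12*, *cdh1*, *cdh2*, *cdh5*, *cdh11* and *celsr1a*, the highest member of each role group that was not called, and the called genes and highest gene of each partner list. Other genes were named after their values were seen. Alternatives were a replicate block, a threshold of 0.05, a 2-fold minimum, an intensity trend, quantile normalization again, median centring, a filter on low values, identical clusters counted once, the mean of a gene's clusters and leaving out each array.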

Additional observations from a re-analysis of the deposited data

How the results depend on the processing

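The count of 7 higher members stayed at 5 to 8 and that of 8 lower members at 4 to 9 over all settings, and of the 15 called members 12 kept their call under every one of 13 refits, the exceptions being *pcdh1a*, *pcdh17* and *celsr1a*. Asking for a 2-fold difference left 4 lower members. With a replicate block 6 were higher and 7 lower. Deviations of equal replicate numbers from their fraction means correlated at -0.03, 0.04 and 0.09. These values run over all clusters, where a pattern shared by few genes would hardly show. They do not settle whether equal replicate numbers share a collection. The epidermis and enveloping layer markers *krt4*, *krt5* and *cyt1* were lowest in replicate 2 of both fractions, while *krt8* was not. These markers were picked after their values were seen, and pairing was not tested. Leaving out single arrays gave 6 or 7 higher and 6 or 7 lower. The mean of a gene's clusters lowered the log2 differences of *pcdh12* to 2.08 and *pcdh10a* to 1.83, shrank that of *fat2* to -0.60, enlarged that of *pcdh17* to -0.88, and kept these calls. By it *pcdh8* was called higher (0.51, adjusted p = 0.074 from limma). At an adjusted p under 0.05 only *pcdh1a* among the called members was lost. Uncalled members near 0 changed sign. After quantile normalization again *cdh7* was at -0.078 and *dsc2l* at -0.034, and with the mean of its clusters *dsc2l* was at -0.041. Without single arrays *cdh7* ranged from -0.062 to 0.146, *dsc2l* from -0.187 to 0.211, *cdh13* from -0.029 to 0.115, *cdhr1a* from -0.091 to 0.027 and *pcdh20* from -0.029 to 0.109. The cause of these changes was not tested. Signals near the array medians limit what can be seen of *cdh5*, *cdh4*, *cdh15* and the other low members, and the ratios of *pcdh12* and *pcdh10a*.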
